A study of Mus musculus with 13 samples.

Results

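The axon guidance ligands and receptors described here are 70 of the 22667 genes in a table of gene expression in mouse cerebellum. They were chosen by symbol and not by any measured value: every gene whose symbol starts with Sema, Plxn, Epha, Ephb, Efna, Efnb, Robo or Unc5, together with Slit1, Slit2, Slit3, Nrp1, Nrp2, Ntn1, Ntn4, Dcc and Neo1. They comprise 20 semaphorins, 9 plexins, 2 neuropilins, 3 Slits, 4 Robo receptors, 2 netrins, 6 netrin receptors, 8 ephrins and 14 Eph receptors. The remaining 2, Unc50 and Unc5cl, share the letters Unc5 with the netrin receptors but belong to other gene families. The table of splicing events held 1839 events of these genes among 283765.

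The study asked how Sam68, an RNA-binding protein encoded by Khdrbs1, regulates alternative splicing as the cerebellum develops after birth. Its 13 libraries were prepared from C57BL/6 mouse cerebella, with 3 libraries of Sam68 knockout and 2 of wild type at postnatal day 1 (P1), 3 of Sam68 knockout and 2 of wild type at P10, and 3 of wild type at P30. There was no knockout at P30. The labels call the mutant only a Sam68 knockout, and they give no animal for any library. Every p-value therefore measures the spread between these libraries, which may be technical.

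Axon guidance molecules steer growing axons and migrating neurons. Semaphorins signal through plexins, the secreted class 3 members mostly with a neuropilin as co-receptor. Secreted Slits repel axons through Robo receptors, which silence attraction to netrin, and netrins attract through Dcc or repel through Unc5 receptors. Ephrins and Eph receptors sit on opposing cell surfaces and signal in both directions. In the cerebellum these systems act while granule cells are born at the surface of the lobules, grow parallel fibres and migrate inwards past the Purkinje cells during the first weeks after birth.

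Of the exons followed below, 6 short ones of Robo2, Slit2 and Unc5b are shown here by sequence, because most of the inclusion values given for these genes are theirs; other events are given by length or position. Inclusion is the percent of reads that include the exon (PSI, percent spliced in). The length of each of these 6 is a multiple of 3, so inclusion keeps the reading frame. The sequences are those of GENCODE M21 transcripts (GRCm38) in which an exon of the same gene has the same length and the same flanking intron lengths, written 5′ to 3′ on the strand of the gene, in lower case throughout. In Robo2, on chromosome 16 and the minus strand, the exons lie at chr16:74009020-74009031 and chr16:73933291-73933416 in mm9, the build of the deposited tables, and the longer one is exon 21 of 28 in its transcript. In Slit2, on chromosome 5 and the plus strand, they lie at chr5:48582242-48582253, chr5:48612206-48612229 and chr5:48654880-48654906. The exon of Unc5b lies on the minus strand at chr10:60239933-60239965.
Robo2 12 nt exon: ttcgccctgttg
Robo2 126 nt exon: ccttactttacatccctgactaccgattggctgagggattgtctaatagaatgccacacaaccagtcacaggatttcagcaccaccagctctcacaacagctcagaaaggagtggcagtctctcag
Slit2 12 nt exon: atgaggaagaag
Slit2 24 nt exon: ctaaagaacagtatttcattccag
Slit2 27 nt exon: ctgctaatctgaatgaggtggaaaaag
Unc5b 33 nt exon: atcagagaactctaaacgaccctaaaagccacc
All 6 lie within the coding sequence of at least 1 matched transcript.

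Expression was given as cRPKM, a read density corrected for transcript length, mappability and sequencing depth. The splicing table held between 17.59 M (wild-type P1, library 8) and 29.72 M (wild-type P10, library 6) reads on exon junctions, and between 6577 and 11033 of all genes were listed at 0 cRPKM in a library. Knockout P1 library 15 listed 12 of the 70 members at 0, of which 11 had junction reads, and the other libraries listed 0 to 6, so junction reads served as a second measure. Across the 70 members the 2 measures had a Spearman correlation of 0.84 to 0.91 in each library. Khdrbs1 had 5.42, 4.22 and 8.5 cRPKM in the knockout P1 libraries, against 56.45 and 74.4 in wild-type P1, and 2.06, 1.28 and 3.59 in knockout P10, against 61.2 and 56.2 in wild-type P10. Wild-type P1 library 8 stood apart in markers of other tissue: 16 genes of the caudal hindbrain and midbrain, 1 of them at 0 in all libraries, summed to 69.3 cRPKM there, against 13.9 to 26.4 in the other P1 libraries. Its granule cell precursor markers summed to 197, against 337 to 373. Choroid plexus markers, 10 genes, were uneven too, summing to 370 to 811 cRPKM in knockout P10 and to 63.6 and 362 in wild-type P10. In wild-type P30 they summed to 58.1, 504 and 1530. At P1 knockout library 14 had 318, against 30.3 to 49.3 in the other libraries of that age. The part of this tissue in the comparisons was not tested. All libraries held the cerebellar markers sought: summed over 12 genes each, those of Purkinje cells reached 603 to 3190 cRPKM and those of granule cells 339 to 2680.

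Most members were expressed. Of the 70, 69 reached a mean of 1 cRPKM in at least 1 group and were tested; Unc5cl was listed at 0 in every library but 1, where it had 0.35. Averaged over the 13 libraries, the most abundant were Plxnb2 (64.3 cRPKM), a plexin of granule cell precursors, Neo1 (55.6), a receptor for netrins and repulsive guidance molecules, and the membrane-anchored semaphorin Sema7a (41.4). The highest member of each other family was Ephb1 (27.4), Robo2 (25.2), Efnb3 (24.1), Ntn1 (16.6), Nrp2 (5.83) and Slit1 (4.30). Among the 69 tested, the mean of the wild-type libraries was highest at P1 for 45, at P10 for 17 and at P30 for 7, and junction reads gave the same age for 66 of them. The same count was not made over all genes.

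With age the guidance genes mostly declined. In wild type at P30 against P1, 31 of 69 members fell and 4 rose, that is 44.9% and 5.8% of those tested, while of all 14063 genes 15.8% fell and 9.66% rose (25.4% called in all). The median log2 difference at P30 was −0.87 over the members and −0.13 over all genes. Here a gene is called at a limma adjusted p below 0.05, and log2 differences are of cRPKM + 1, which understates the change of genes at low levels. Falls were called in 6 of 14 Eph receptors, 5 of 8 ephrins, 5 of 9 plexins, 5 of 20 semaphorins, 4 of 6 netrin receptors, both neuropilins, 2 of 3 Slits and 2 of 4 Robo receptors. The risers were Unc5b, Plxnb3, Sema4d and Sema7a, and neither netrin was called. Counted from junction reads, 46 members fell and 9 rose, while 38% of all genes fell and 23.1% rose (61.1% called). In bulk tissue, fewer cells of a type and less RNA per cell cannot be told apart. Granule cell precursor markers summed to 58.2 to 69.5 cRPKM at P30 and to 197 to 373 in wild-type P1, and oligodendrocyte markers to 3810 to 4760 at P30 and 187 to 210 in wild-type P1; their part in these changes was not tested. In fits that omitted 1 of the 5 libraries, 23 of the 35 calls were always kept.

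**Figure D1:**
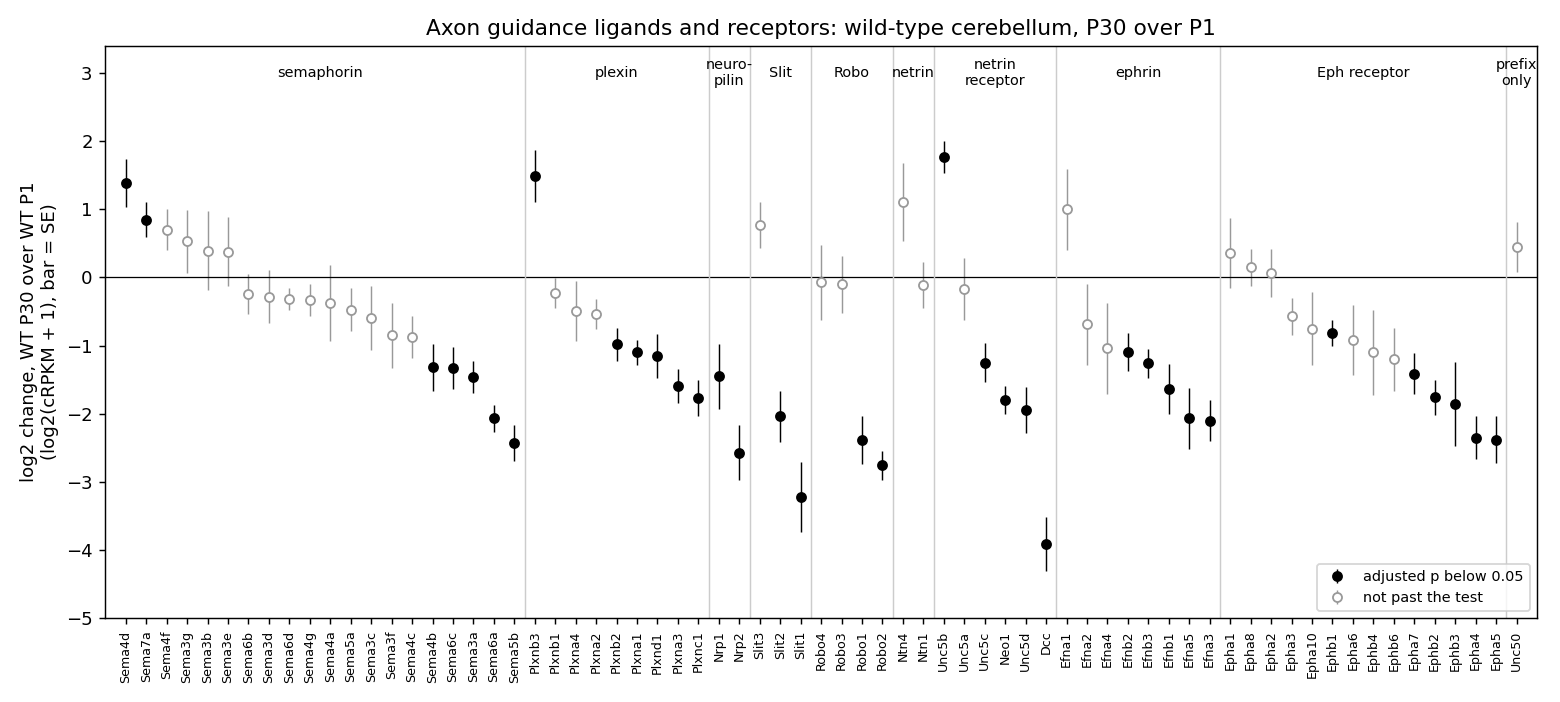
Log2 difference of cRPKM + 1 between wild-type P30 (n = 3) and wild-type P1 (n = 2) for the 69 tested members, grouped by family. Filled points passed the limma test at an adjusted p below 0.05 and bars are standard errors. Most points lie below 0, with Dcc farthest at −3.91, and 4 filled points lie above it.

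The Slit and Robo genes, a repellent system, showed some of the steepest declines. Robo2, a Slit receptor, had 49.9, 38.9 and 50.5 cRPKM in knockout P1, 38.0 and 43.4 in wild-type P1, 15.99, 15.48 and 18.04 in knockout P10, 19.9 and 22.0 in wild-type P10, and 6.41, 4.15 and 5.05 in wild-type P30. The 3 wild-type ages did not overlap, nor did P10 and P1 in knockout. In wild type it averaged 5.2 ± 1.14 at P30 against 40.7 ± 3.8 at P1 (log2 difference −2.76, SE 0.21, limma adjusted p = 1.99e-06), and the step between P10 and P30 was called as well (−1.84, SE 0.21, adjusted p = 0.000106). Robo1 averaged 3.99 ± 0.505 at P30 and 25.1 ± 3.34 at P1 (−2.39, adjusted p = 0.000303). Robo3, a receptor of commissural axons, did not exceed 2.24 cRPKM in any library, and Robo4, the endothelial member, did not exceed 8.61.

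Slit1 declined early. It had 6.86, 11.1 and 8.36 cRPKM in knockout P1, 15.8 and 7.26 in wild-type P1, 0.89, 2.36 and a listed 0 in knockout P10, 1.69 and 0.74 in wild-type P10, and 0.54, 0.05 and 0.26 in wild-type P30. Every P10 and P30 library lay below every P1 library. The fall at P10 against P1 was called in wild type (−2.44, SE 0.56, adjusted p = 0.0304) and in knockout (−2.38, SE 0.46, adjusted p = 0.00701), whereas the step between P10 and P30 did not pass (−0.77, SE 0.51, adjusted p = 0.382). Wild-type P1 library 8, with the high hindbrain markers, was the highest for Slit1, and the wild-type call was lost without library 5, 6 or 8 (adjusted p up to 0.262). The part of the hindbrain markers in that value was not tested. Slit2 averaged 0.71 ± 0.139 at P30 and 6.05 ± 0.863 at P1 in wild type (−2.04, SE 0.37, adjusted p = 0.0014). The third Slit ran the other way: Slit3 had 2.4 and 1.83 cRPKM in wild-type P1, 7.63 and 4.43 in wild-type P10 and 3.65, 5.38 and 4.0 in wild-type P30. Its difference between P30 and P1 was 0.77 (adjusted p = 0.125) in cRPKM and 0.90 (adjusted p = 0.000625) in junction reads.

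The netrin receptors changed in opposite directions, while their ligand Ntn1 was not called at any step. Dcc, the attractive netrin receptor, had 21.5, 25.1 and 26.3 cRPKM in knockout P1, 15.03 and 28.05 in wild-type P1, 6.98, 5.93 and 17.9 in knockout P10, 14.2 and 13.5 in wild-type P10, and 0.35, 0.52 and 0.45 in wild-type P30. At P30 all 3 libraries lay below 1 cRPKM. In wild type it averaged 0.44 ± 0.0854 at P30 against 13.8 ± 0.509 at P10 (log2 difference −3.37, SE 0.40, adjusted p = 0.000163). The knockout decline between P10 and P1 also passed (−1.31, adjusted p = 0.0372), but only the fit without knockout P10 library 12, the highest of its group, kept that call among the 6 that left out a library. Unc5b, a repulsive netrin receptor also known from blood vessels, rose: it had 7.41, 6.79 and 7.23 in knockout P1, 3.76 and 6.57 in wild-type P1, 21.8, 24.1 and 26.4 in knockout P10, 28.8 and 22.3 in wild-type P10, and 18.4, 23.2 and 17.5 in wild-type P30. The rise at P10 against P1 was 2.14 in wild type (SE 0.26, adjusted p = 0.00084) and 1.62 in knockout (SE 0.22, adjusted p = 0.000769), and both calls were kept whichever library was left out.

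Unc5c, known from mice in which its loss lets granule cells spread beyond the cerebellar border, fell late. It averaged 10.9 ± 1.76 cRPKM at P30 and 42.0 ± 3.31 at P10 in wild type (−1.86, SE 0.29, adjusted p = 0.00111). Neo1 had 22.2, 21.1 and 19.4 cRPKM in wild-type P30, against 53.5 and 59.0 in wild-type P10 (−1.39, SE 0.20, adjusted p = 0.000661). Unc5d fell in the same step, averaging 1.17 ± 0.271 at P30 and 3.8 ± 0.332 at P10 (−1.15, adjusted p = 0.0393), a call lost without any 1 of the 5 libraries (adjusted p 0.0784 to 0.158). Unc5a, another repulsive receptor, did not pass in any comparison of cRPKM, though junction reads placed it lower at P10 than at P1 in wild type (−0.98, adjusted p = 0.000283) and higher at P30 than at P10 (0.97, adjusted p = 5.95e-05). Of the ligands, Ntn1 averaged 16.3 cRPKM in wild-type P30 and differed by −0.11 from wild-type P1 (SE 0.34, adjusted p = 0.871). The P1 libraries held 29.06 (library 8, with the high hindbrain markers) and 10.47, so against library 9 alone the P30 mean was higher, not lower. Ntn4, which binds laminins as well as netrin receptors, had 17.43, 25.19 and 13.95 in knockout P10, against 1.61, 4.94 and a listed 0 in knockout P1 (2.95, SE 0.51, adjusted p = 0.00355). The library listed at 0 had 20.1 junction reads per 1 M, beside 20.5 and 19.4 in the others of its group, and by junction reads the knockout rise was 2.05 (adjusted p = 6.58e-08). In wild type it had 15.1 and 22.1 at P10, against 4.72 and 3.15 at P1 (1.98, SE 0.62, adjusted p = 0.113 by cRPKM and 3.54e-07 by junction reads).

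Among semaphorins, Sema6a and Sema5b were lower at P30 and Sema7a and Sema4d were higher. Sema6a, a membrane semaphorin needed in mice for granule cells to leave the outer layer, had 25.6, 37.4 and 33.8 cRPKM in knockout P1, 29.7 and 35.4 in wild-type P1, 34.9, 36.8 and 38.0 in knockout P10, 47.3 and 36.3 in wild-type P10, and 5.96, 7.77 and 7.21 in wild-type P30. At P10 against P1 its wild-type difference was 0.34 (SE 0.22, adjusted p = 0.518), and it then fell by 2.42 on the log2 scale at P30 (SE 0.20, adjusted p = 1.37e-05). Its receptor Plxna2 passed in both steps with opposite signs: it had 31.1 and 27.4 in wild-type P10, against 16.0 and 12.2 in wild-type P1 (1.01, SE 0.24, adjusted p = 0.0362), and 8.48, 11.1 and 8.72 in wild-type P30 (−1.54 against P10, SE 0.22, adjusted p = 0.000607). The rise of Plxna2 lost its call when any 1 of the 4 libraries was left out (adjusted p 0.0778 to 0.203) or when libraries were centred on their median, while in junction reads it was 1.22 (adjusted p = 0.000579). In the knockout, Plxna2 rose by 0.74 at P10 against P1 (SE 0.20, adjusted p = 0.0332), a call lost without library 10, 12, 14 or 15 (adjusted p up to 0.0918).

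Sema5b also fell late, averaging 1.47 ± 0.131 cRPKM at P30 and 7.37 ± 0.156 at P10 in wild type (−1.76, SE 0.27, adjusted p = 0.000926). Sema7a ran the other way, with 61.3, 55.7 and 57.7 cRPKM in wild-type P30, against 26.4 and 38.5 in wild-type P1 (0.85, SE 0.26, adjusted p = 0.032). That call was kept without wild-type P1 library 9 only, with adjusted p up to 0.269 without another of the 5 libraries. Sema4d, a membrane semaphorin, and Plxnb3, a receptor for Sema5a, are both known from oligodendrocytes. Sema4d averaged 19.6 ± 2.15 at P30 and 6.94 ± 2.1 at P1 in wild type (1.39, SE 0.35, adjusted p = 0.0111), and Plxnb3 averaged 4.84 ± 1.14 and 1.06 ± 0.269 (1.49, SE 0.38, adjusted p = 0.0128). Without wild-type P1 library 9 neither passed (adjusted p up to 0.127), and Plxnb3 was also lost without wild-type P30 library 2. Knockout P10 library 12 held less of both (10.48 and 2.77) than the other knockout P10 libraries (18.5 and 27.2 for Sema4d, 6.24 and 6.31 for Plxnb3), and also had the lowest oligodendrocyte marker sum at that age, 1620 cRPKM in a range of 1620 to 3020. By junction reads the gap was narrower for Sema4d, at 135 CPM in library 12 and 148 and 158 in the others. Both wild-type P10 libraries lay lower, at 134 and 119. For Plxnb3 it was 52.4 CPM in library 12, against 73 and 67.1. The part of those cells in both genes was not tested.

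Among the co-receptors and plexins that fell by P10 were Nrp2 and Plxna1. Nrp2, a co-receptor for class 3 semaphorins, had 0.81, 1.51 and 2.65 cRPKM in knockout P10, against 10.1, 8.14 and 15.1 in knockout P1 (−2.21, SE 0.36, adjusted p = 0.00268), and 3.17 and 2.63 in wild-type P10, against 17.95 and 9.55 in wild-type P1 (−1.86, SE 0.44, adjusted p = 0.0359). The groups did not overlap in either genotype, but the wild-type call was lost without library 5, 6 or 8 (adjusted p up to 0.287). Plxna1 averaged 13.8 ± 1.57 in knockout P10 and 33.4 ± 2.92 in knockout P1 (−1.21, SE 0.16, adjusted p = 0.000725). At P30 against P10 in wild type its difference was −0.02 (SE 0.18, adjusted p = 0.967). Plxnb2 was lower at P30, with 33.0, 33.5 and 34.9 in wild-type P30, against 70.5 and 56.5 in wild-type P10 (−0.88, SE 0.24, adjusted p = 0.0254), a call lost when any 1 of the 5 libraries was left out (adjusted p 0.062 to 0.189). In the knockout it was already lower at P10, averaging 56.5 ± 5.47 against 98.5 ± 10.8 at P1 (−0.79, adjusted p = 0.034, and up to 0.1 without library 10, 11, 13 or 15). Wild-type P1 held 47.74 in library 8, whose precursor markers were low as given above, and 94.93 in library 9, on either side of both wild-type P10 libraries (−0.09 at P10 against P1, adjusted p = 0.929). The part of that library's tissue in this value was not tested.

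**Figure D2:**
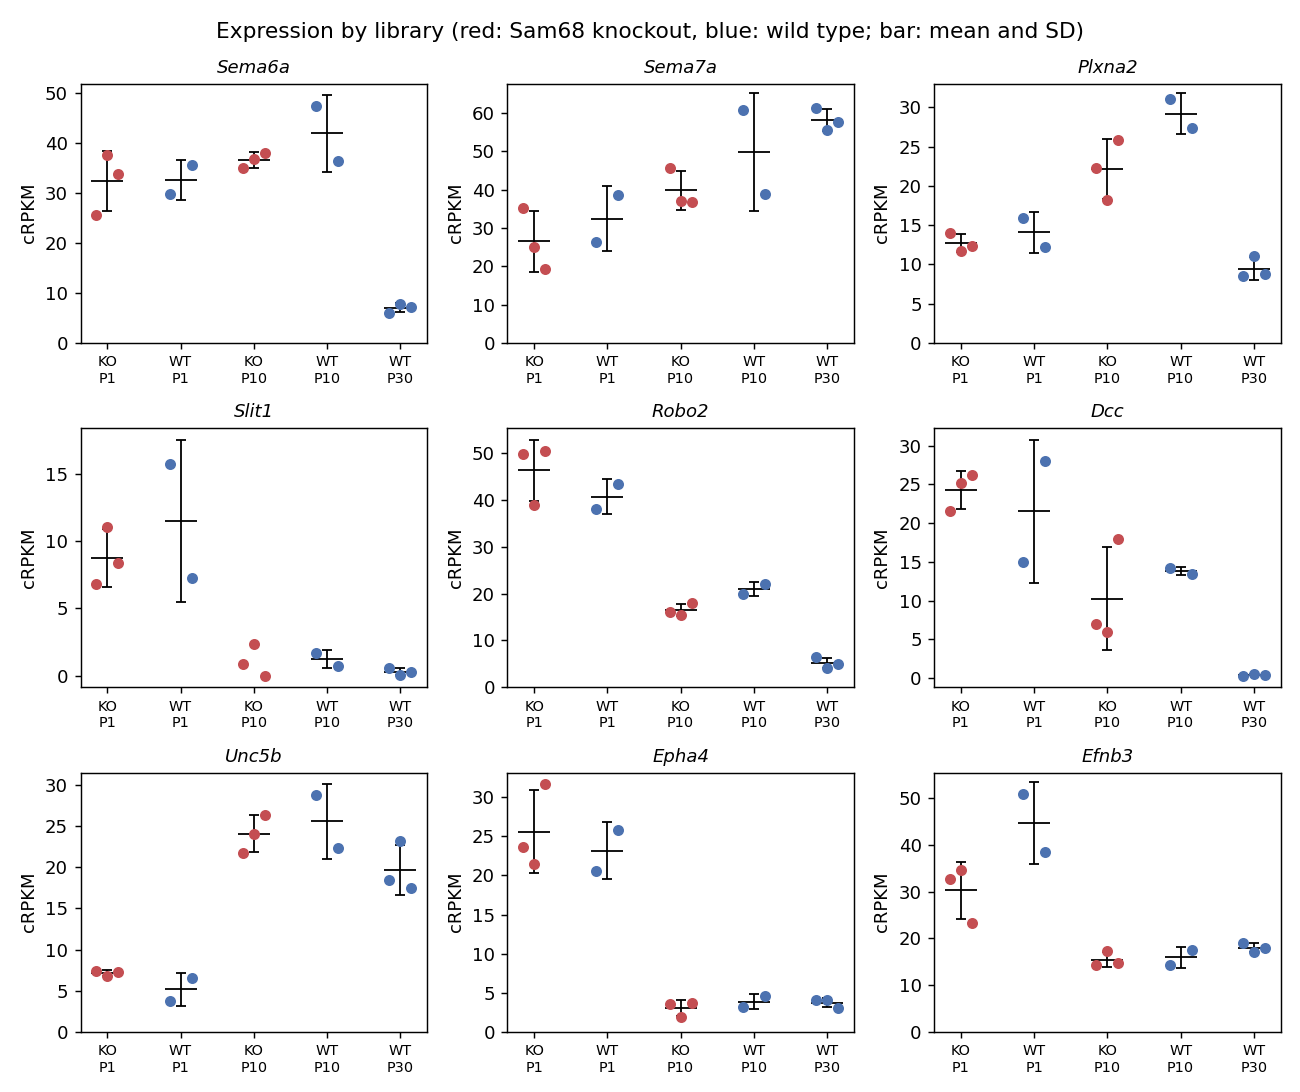
Expression in cRPKM of 9 members in each library, in the order knockout P1, wild-type P1, knockout P10, wild-type P10 and wild-type P30. Points are libraries (red knockout, blue wild type) and bars are the mean and SD, left out where a library was listed at 0. Slit1 and Epha4 are already low at P10, Sema6a and Plxna2 fall at P30, and Unc5b is higher at P10 and P30 than at P1.

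In wild type 2 Eph receptors, Epha4 and Epha5, and 2 ephrins, Efnb3 and Efna3, fell at P10 against P1, and Ephb1 and Ephb2 fell at P30 against P10. Epha4, a receptor for both ephrin classes, had 23.7, 21.5 and 31.7 cRPKM in knockout P1, 20.6 and 25.8 in wild-type P1, 3.53, 1.88 and 3.7 in knockout P10, 3.15 and 4.58 in wild-type P10, and 4.02, 4.1 and 3.1 in wild-type P30. All P10 and P30 libraries lay below 5 cRPKM and all P1 libraries above 20. The P10 to P1 difference was −2.32 in wild type (SE 0.34, adjusted p = 0.00227) and −2.74 in knockout (SE 0.27, adjusted p = 0.000122), both kept whichever library was left out, and between P30 and P10 it was −0.03 (SE 0.31, adjusted p = 0.98). Epha5 averaged 3.01 ± 0.438 in wild-type P10 and 15.6 ± 3.74 in wild-type P1 (−2.04, SE 0.38, adjusted p = 0.00968). Efnb3, an ephrin of the midline, averaged 16.0 ± 2.2 in wild-type P10 and 44.8 ± 8.78 in wild-type P1 (−1.42, SE 0.23, adjusted p = 0.00474). Efna3 averaged 6.84 ± 2.4 and 18 ± 2.26 in the same groups. Its call was lost with the compared groups alone in the fit, or with 0.1 added to cRPKM instead of 1. The call of Ephb2 at P30 against P10 was lost without wild-type P30 library 1 or 3, or with libraries centred on their median. Epha5 lost its call without library 5, 6 or 8 (adjusted p up to 0.112), and Efnb3 without library 5 or 8 (up to 0.0626).

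Over the whole period more ephrins and Eph receptors were called. Efna3 and Efna5, ligands of EphA receptors, averaged 3.41 ± 0.347 and 1.23 ± 0.888 cRPKM in wild-type P30, against 18 ± 2.26 and 7.78 ± 0.424 in wild-type P1 (−2.10 and −2.07, adjusted p = 0.000278 and 0.00487). Ephb2 fell as well, averaging 8.46 ± 0.741 in wild-type P30 and 31.6 ± 9.22 in wild-type P1 (−1.76, SE 0.26, adjusted p = 0.000346). Ephb1 had 13.4, 19.0 and 16.2 in wild-type P30, against 41.2 and 32.1 in wild-type P10 (−1.13, SE 0.19, adjusted p = 0.00188). Epha8 had 16.4, 14.2 and 14.7 in wild-type P30 and 10.1 and 17.8 in wild-type P1, and these ranges overlap. Summed over the 14 Eph receptors, cRPKM averaged 148 ± 13.3 in knockout P1, 156 ± 13.9 in wild-type P1, 88.3 ± 6.82 in knockout P10, 97.3 ± 11.1 in wild-type P10 and 61.6 ± 2.83 in wild-type P30.

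Taken step by step, wild type at P10 against P1 gave 2 risers (Unc5b, Plxna2) and 8 fallers (Slit1, Epha4, Epha5, Nrp2, Efnb3, Efna3, Plxna1, Robo2) among 69 members, with 4.05% of all genes called in that comparison (2.2% higher, 1.85% lower). The count of 10 was 2 without library 8, 3 without library 5 and 4 without library 6, and only Epha4 and Unc5b were called in all 4 such fits; by junction reads it was 42, against 27.4% of all genes. Wild type at P30 against P10 gave 17 fallers and no riser by cRPKM, with 14.7% of all genes called (5.02% higher, 9.73% lower). An unadjusted p below 0.05, a cutoff at which no share of all genes is given, was found for 26 members. By junction reads 36 fell and 6 rose there, while 31.4% of all genes fell and 17% rose (48.3% called). The median of all genes shifted by −0.17 in this step: with libraries centred on their median, 11 members fell and Sema3c rose (1.56, adjusted p = 0.0494), and Ephb2, Plxnb2, Plxnd1, Sema6c, Sema6d and Unc5d were no longer called. In that centred fit 971 of all genes fell and 940 rose, against 1368 and 706 without centring. The count of 17 was 9 without wild-type P10 library 5, and 11 without wild-type P30 library 1 or 3. Counts over all genes in the fits that left out a library are not given here. All members called by cRPKM in the age comparisons were called in the same direction by junction reads.

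The knockout cerebella also changed between P10 and P1. In knockout at P10 against P1, 5 members rose and 14 fell, with 10.2% of all genes called (5.58% higher, 4.59% lower). By junction reads 51 members were called, with 36.8% of all genes, and with the 2 knockout groups alone in the fit 7 were called. The risers were Ntn4, Sema4d, Unc5b, Plxnb3 and Plxna2, and the 10 largest falls were those of Epha4, Slit1, Nrp2, Efna5, Epha5, Robo2, Dcc, Plxna1, Ephb2 and Unc5d. Of the 10 wild-type calls 9 were also called in the knockout, which is 90% of the wild-type and 47% of the knockout calls. The groups of the 2 courses share no library. Across the 69 genes, which are not independent replicates, the log2 differences had a Pearson correlation of 0.94 by junction reads and 0.84 by cRPKM, and 63 and 60 genes had the same sign. The median difference between the 2 courses, knockout minus wild type, was −0.14 by junction reads. The overlap of calls, the correlations and the counts of signs were not computed over all genes.

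**Figure D3:**
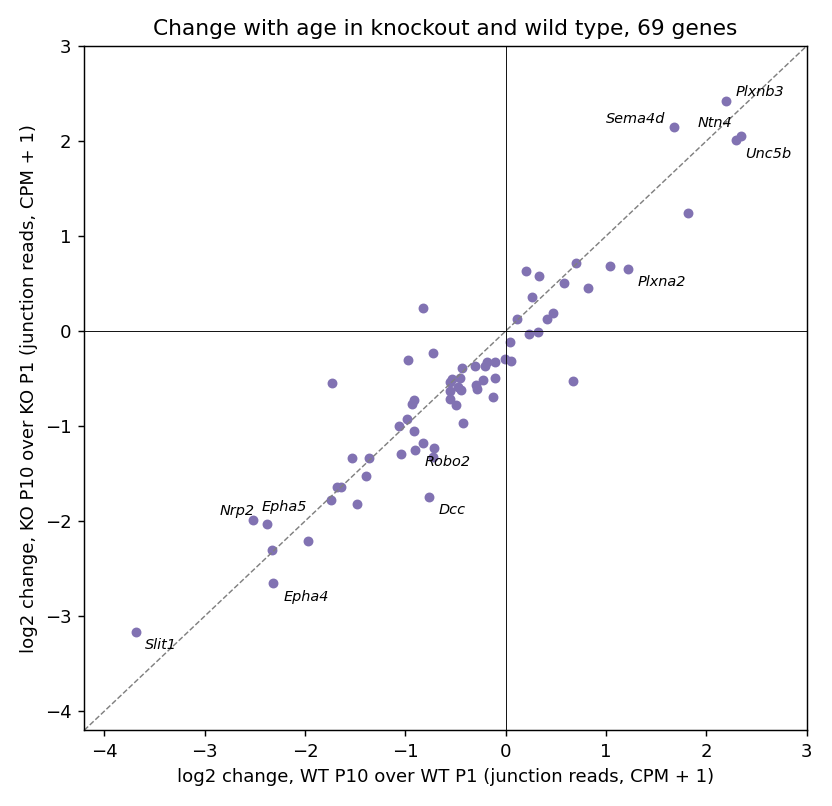
Log2 difference in junction CPM + 1 between P10 and P1 in knockout (vertical axis) against wild type (horizontal axis) for 69 members. Each point is a gene and the line marks equal change. The points run along the line, with 63 of 69 having the same sign on both axes.

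Loss of Sam68 did not give a called change in the level of any guidance gene. At P1, 0 of 69 members rose or fell in knockout against wild type, while 0.0356% of all genes were called by limma, and at P10 it was again 0 of 69, with 0.00711% of all genes. Junction reads gave 0 calls among members at both ages, with 0.00772% and 0.0154% of all genes called. An unadjusted p below 0.05 was found for 5 members at P1 and for 1 at P10. The shares of all genes given here are at the adjusted p, and none is given at the unadjusted cutoff. The median difference was −0.15 at P1 and −0.16 at P10 over members, and −0.04 and −0.03 over all genes. The test of whether the knockout difference itself changed between P10 and P1 also called 0 members, with 2 unadjusted p-values below 0.05 and 0.0142% of all genes called.

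The members with the smallest p in knockout against wild type were as follows. Efnb3 had 32.8, 34.8 and 23.3 cRPKM in knockout P1, against 51.0 and 38.6 in wild-type P1 (−0.55, SE 0.21, adjusted p = 0.704), and −0.15 by junction reads. Unc5c had 44.8, 39.5 and 49.7, against 20.1 and 36.5 (0.69, SE 0.29, adjusted p = 0.724), and Plxnb2 had 95.2, 89.7 and 111, against 47.7 and 94.9 (0.54, SE 0.24, adjusted p = 0.735). In all 3 genes library 8 lay farther from the knockouts than library 9, and the part of its other tissue was not tested. At P10 the smallest p was that of Slit3, with 2.81, 3.64 and 2.56 in knockout and 7.63 and 4.43 in wild type (−0.78, SE 0.34, adjusted p = 0.884). Plxna4, a plexin for class 3 and class 6 semaphorins, had 1.93, 1.27 and 2.37 in knockout P10, against 6.06 and 3.01 in wild-type P10 (−0.92, adjusted p = 0.884), and Unc5d had 2.22, 1.23 and 2.59, against 4.04 and 3.57 (−0.70, adjusted p = 0.884). Sema3c had the smallest p in the test between the ages (1.93, SE 0.67, adjusted p = 0.854).

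Groups that did not overlap were about as frequent among members as among all genes. At P1 the knockout libraries lay outside the wild-type range for 14 members, 2 higher and 12 lower, which is 20.3% of 69 beside 18.5% of all genes (7.89% higher, 10.6% lower). At P10 it was 12 members, 2 higher and 10 lower, which is 17.4% beside 19% of all genes (8.59% higher, 10.4% lower). One of the members so counted at both ages, Sema6d, had 34.0, 33.0 and 34.1 cRPKM in knockout P1, against 37.9 and 36.0 in wild-type P1, and 37.4, 38.1 and 41.6 in knockout P10, against 50.2 and 45.2 in wild-type P10 (−0.13 and −0.28, adjusted p = 0.851 and 0.894). By junction reads its P10 groups overlapped, at 119, 88.8 and 174 CPM in knockout and 181 and 169 CPM in wild type.

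**Figure D4:**
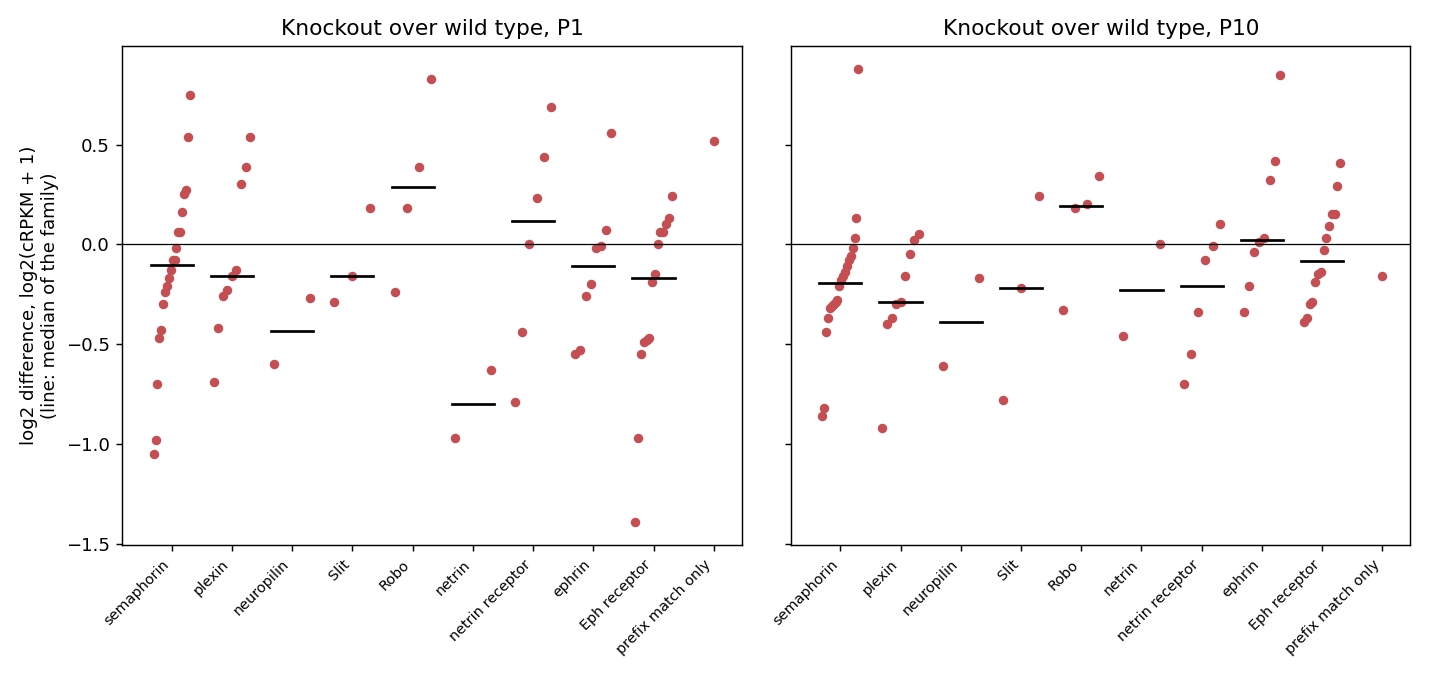
Log2 difference of cRPKM + 1, knockout over wild type, at P1 and at P10 (n = 3 and 2 libraries at each age) for the 69 tested members by family. Points are genes and the short line is the family median. None of the points passed the limma test.

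Splicing of the guidance genes was tested for 241 events of the 1839: 135 retained introns, 64 exons, 23 alternative acceptors and 19 alternative donors, each with a mean PSI of 5 to 95 and at least 10 reads per library used. Sema6c carried the most with 20, then Plxna3 with 17 and Sema4c with 11. Of the 64 exons, 40 were a multiple of 3 nt long, including all 8 of at most 27 nt. An event is called at an adjusted p below 0.05 and a difference of at least 10 points of PSI. In wild type at P30 against P1, 8 of 207 tested events rose and 3 fell, in 8 genes, with 10% of all events called (6.16% higher, 3.88% lower). Fewer changed at P30 against P10, where 2 of 216 events rose and 2 fell with 2.97% of all events called (2.06% higher, 0.915% lower).

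Robo2 carried the clearest pair. Its 126 nt exon, between 142 and 1898 reads deep, had a PSI of 54.1, 55.6 and 58.5% in knockout P1, 66.5 and 54.2% in wild-type P1, 36.3, 38.6 and 41.9% in knockout P10, 39.7 and 39.6% in wild-type P10, and 10.24, 10.51 and 9.42% in wild-type P30. Inclusion was lower at each later age, and the ages did not overlap in either genotype. In wild type it averaged 10.1 ± 0.6% at P30 against 60.4 ± 8.7% at P1 (−50.3 points, adjusted p = 1.16e-06) and 39.7 ± 0.1% at P10 (−29.6 points, adjusted p = 0.000125). At P10 against P1 it differed by −17.1 points in knockout (adjusted p = 0.0584) and −20.7 points in wild type (adjusted p = 0.0675), and neither passed. In the opposite direction ran the short exon of Robo2, 12 nt long, with 53.6, 63.0 and 53.6% in knockout P1, 48.5 and 54.5% in wild-type P1, 86.5, 76.5 and 75.9% in knockout P10, 80.3 and 80.2% in wild-type P10, and 97.3, 89.8 and 98.4% in wild-type P30. It was 43.7 points higher at P30 than at P1 (adjusted p = 0.00037), a call kept whichever library was left out. Against P10 the difference was 14.9 points (adjusted p = 0.0414), and that call was kept without wild-type P30 library 2 only (adjusted p up to 0.255). A further Robo2 exon of 183 nt averaged 1.7 ± 0.9% in wild-type P30 and 9.7 ± 0.2% in wild-type P10, with an adjusted p of 0.0277 but a difference of −8 points, too small to be called.

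None of the 3 short exons of Slit2 passed between P10 and P1, and all rested on few reads. The 27 nt exon had 61.5, 62.0 and 68.9% in knockout P1, 77.5 and 64.0% in wild-type P1, 37.7, 46.7 and 11.1% in knockout P10, and 11.6 and 18.7% in wild-type P10. It was lower in every P10 library than in every P1 library of its genotype, by 32.3 points in knockout (31.8 ± 18.5% at P10 and 64.1 ± 4.2% at P1, adjusted p = 0.254) and 55.6 points in wild type (adjusted p = 0.0763), and neither passed. Between 3 and 99 reads covered it, and at P30 a single library reached 10 reads, with 6.8%. The 24 nt exon differed at P10 against P1 by 19.5 points in knockout (adjusted p = 0.408) and 10.1 points in wild type (adjusted p = 0.81). For that of 12 nt the differences were −13.7 points in knockout (adjusted p = 0.413) and −32.4 points in wild type (adjusted p = 0.282). In Unc5b, the 33 nt exon had 80.4, 72.5 and 71.7% in wild-type P30, against 51.13 and 50.04% in wild-type P10 (24.3 points, adjusted p = 0.0576). All 3 P30 libraries of Unc5b lay above the other 10, which spanned 48.6 to 64.4%.

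Other called events lay in semaphorin, plexin and Slit genes. A 99 nt exon of Sema4f, chr6:82885581-82885679, averaged 89.8 ± 1.0% in wild-type P30 and 50.6 ± 3.1% in wild-type P1 (39.1 points, adjusted p = 0.00877), and the 94 nt exon of the same gene at chr6:82880892-82880985 moved with it (37.0 points, adjusted p = 0.0149). Both lost their call without either wild-type P1 library (adjusted p up to 0.0785 and 0.0987). A 50 nt exon of Plxnb2, which is not coding in its matched transcript, had 71.3 and 74.8% in wild-type P1, 85.03 and 65.02% in wild-type P10 and 93.1, 92.98 and 95.8% in wild-type P30. It was 20.9 points higher at P30 than at P1 (adjusted p = 0.00789, and 0.0761 without wild-type P1 library 8) and 18.9 points higher than at P10 (adjusted p = 0.0309, and up to 0.414 without 1 library).

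**Figure D5:**
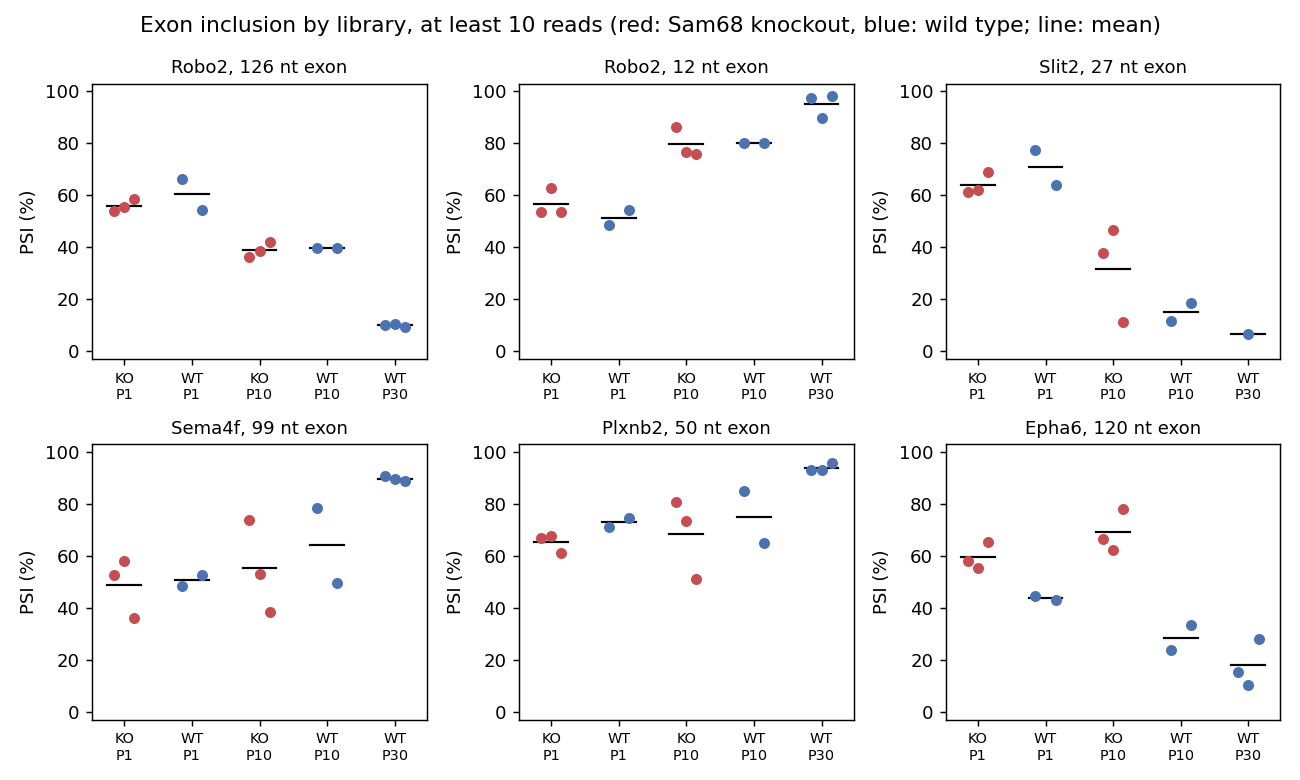
PSI in percent of 6 exons in each library with at least 10 reads, in the order knockout P1, wild-type P1, knockout P10, wild-type P10 and wild-type P30; the line is the group mean. The 126 nt exon of Robo2 descends with age and the 12 nt exon climbs, and the 120 nt exon of Epha6 lies higher in knockout than in wild type at both ages.

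Retained introns and a donor extension of Plxna3 made up the rest. A 597 nt intron of Plxnd1, a receptor of Sema3e, had 0, 2.63 and 4.07% in knockout P1, 3.23 and 2.4% in wild-type P1, 42.1, 48.9 and 14.6% in knockout P10, 28.6 and 24.3% in wild-type P10, and 69.7, 66.0 and 63.6% in wild-type P30. No P1 library overlapped a later one. It was the 1 event of 206 called in knockout at P10 against P1 (33.0 points, adjusted p = 0.00692), where 0.862% of all events were called, and it was also called in wild type at P30 against P1 (63.6 points, adjusted p = 0.00046). Between 32 and 81 reads covered it, and in 8 of the 13 libraries the deposited test of even reads across the intron had a p below 0.05. Further calls in wild type at P30 against P1 were a 404 nt intron of Plxnd1 (15.9 points, adjusted p = 0.0112), a 198 nt intron of Plxna2 (−16.2 points, 0.0141), a 108 nt donor extension of Plxna3 (12.1 points, 0.0231), a 36434 nt intron of Slit3 (−36.0 points, 0.0342) and a 1125 nt intron of Plxnc1 (10.8 points, 0.0357). An 89 nt intron of Sema3g was at 0% in all 3 wild-type P30 libraries, against 26.9 and 31.8% in wild-type P10 (−29.4 points, adjusted p = 0.0116, and up to 0.13 without wild-type P10 library 5 or 6). Few reads lay behind the introns of Slit3 (7 to 30 in a library) and Sema3g (8 to 33). Without wild-type P1 library 8 or 9 the 11 calls at P30 against P1 were 5 or 7, and of all 11 the Robo2 exons and the 597 nt Plxnd1 intron were called in every fit that left out 1 of the 5 libraries. The count of 4 at P30 against P10 was 1 without wild-type P10 library 6, and 2 without wild-type P10 library 5 or wild-type P30 library 1 or 3.

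In wild type at P10 against P1, 0 of 214 events passed, with 0.657% of all events called by limma and 32 members' events at an unadjusted p below 0.05. No share of all events is given at that unadjusted cutoff. With at least 20 reads required, 1 event passed.

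No splicing event of a guidance gene was called between knockout and wild type. At P1 it was 0 of 221 events, with 0.0242% of all events called by limma and 1 event of a member at an unadjusted p below 0.05. At P10 it was 0 of 215, with 0.0309% of all events called and 8 at an unadjusted p below 0.05. The test of a change in the knockout difference between the ages gave 0 of 203, with 0% of all events called and 4 at an unadjusted p below 0.05. Shares of all events at the unadjusted cutoff are not given. For the Robo2 exons the genotypes overlapped at both ages: the 126 nt exon differed by −4.3 points at P1 and −0.7 points at P10, and the 12 nt exon by 5.3 and −0.6 points (adjusted p = 1 for each).

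The smallest p of the P10 comparison belonged to a 120 nt exon of Epha6, an Eph receptor, at chr16:60483617-60483736. It had 58.1, 55.3 and 65.4% in knockout P1, 44.8 and 43.2% in wild-type P1, 66.7, 62.5 and 78.3% in knockout P10, 24.0 and 33.3% in wild-type P10, and 15.6, 10.2 and 28.0% in wild-type P30. Every knockout library lay above every wild-type library. The knockout averaged 69.1 ± 8.2% at P10, against 28.7 ± 6.6% in wild type (40.5 points, adjusted p = 0.629), and 59.6 ± 5.2% against 44.0 ± 1.1% at P1 (15.6 points, adjusted p = 1). Between 13 and 67 reads covered the exon in a library. Epha6 itself was low, at 0.16, 0.61 and 0.85 cRPKM in knockout P10, against 1.45 and 0.42 in wild-type P10.

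A 51 nt exon of Sema6a had the next smallest p at P10, with 41.3, 51.0 and 59.9% in knockout and 30.3 and 27.5% in wild type (21.9 points, adjusted p = 0.977). At P1 the order was not the same: it had 39.6, 56.6 and 45.3% in knockout and 52.1 and 54.4% in wild type (−6.0 points, adjusted p = 1). In wild-type P30 it had 48.7, 58.2 and 48.3%, so the low values were those of wild-type P10. At P1 the smallest p was that of a 72 nt exon of Slit2, with 90, 86.41 and 86.81% in knockout and 93.1 and 100% in wild type (−8.8 points, adjusted p = 0.982). At P10 the same Slit2 exon was at 100% in all 3 knockout libraries, against 85.2 and 88.9% in wild type (13 points, adjusted p = 1), on 14 to 34 reads. Next in p were a 273 nt exon of Robo4 at P1 (88.5 ± 2.6% in knockout and 95.4 ± 2.2% in wild type) and a 29 nt donor extension of Epha4 at P10 (7.7 ± 3.7% and 1.9 ± 2.7%), each with an adjusted p of 1.

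Across the 206 events tested in both, PSI differences between P10 and P1 had a Pearson correlation of 0.62 between knockout and wild type, and 143 had the same sign. Events of 1 gene share reads and are not independent. The same values were not computed over all events.

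Guidance genes outside these families were counted in the same way. Of 43 other cues and adhesion receptors, 19 fell and 5 rose in wild type at P30 against P1, where 15.8% of all genes fell and 9.66% rose, and the median difference was −0.76 beside −0.13 over all genes. None of the 43 rose or fell in knockout against wild type, where 0.0356% of all genes were called at P1 and 0.00711% at P10. Islr2, an adhesion protein of growing axons, averaged 1.59 ± 0.359 cRPKM in wild-type P30 and 143 ± 80.7 in wild-type P1 (−5.68, SE 0.33, adjusted p = 3.16e-07). Cntn2, a contactin of parallel fibres, averaged 81.9 ± 21.4 in wild-type P10 and 20.6 ± 4.79 in wild-type P1 (1.93, SE 0.23, adjusted p = 0.000611). Of 66 intracellular effectors of guidance signals, 22 fell and 11 rose at P30 against P1, beside the same 15.8% and 9.66% of all genes, with a median of −0.40; 0 were called in the knockout at either age. Dpysl3, a collapsin response mediator protein that acts below semaphorin receptors, averaged 7.72 ± 0.663 in wild-type P30 and 617 ± 54.9 in wild-type P1 (−6.15, SE 0.24, adjusted p = 2.21e-08). Chn2, a Rac-inactivating protein of granule cells, averaged 379 ± 24.3 and 11.9 ± 2.3 (4.90, SE 0.25, adjusted p = 1.37e-07).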

How the data were processed

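Total RNA of mouse cerebella was made into stranded mRNA libraries with a modified kit, per the labels' protocols. Reads were handled with FastQC and Trimmomatic and the genome build was mm9, per the submitters' processing notes; no versions were given there, and the aligner and the counting and splicing programs are unnamed in the sources used here. The authors deposited gene expression as cRPKM (an RPKM over mappable length) and splicing as percent inclusion with the reads for and against it. Depth behind the cRPKM values is unknown.

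Log2(cRPKM + 1) was compared for the 14063 genes that averaged 1 cRPKM or more in some group. Splicing was tested as log2 odds, with 0.5 added to the reads of each side, for events whose PSI averaged between 5 and 95, using libraries with 10 reads or more and needing 2 such libraries in each compared group; alternative splice sites of a group counted once. Both used 1 limma 3.58.1 fit (R 4.3.3) of the 5 groups, with 8 residual degrees of freedom and a prior trended over mean level or mean reads, and Benjamini-Hochberg adjustment over all features. Splicing events with libraries under 10 reads had fewer residual degrees of freedom. For splicing, the prior over reads replaced limma's default, over mean log odds, after the default's results had been seen: over all events, the default called 1 at P1 and 0 at P10 in knockout against wild type, and the prior over reads called 9 and 12. As a second measure, reads on annotated exon junctions were summed per gene (12954 genes, log2(CPM + 1)). Self-tests on simulated data were run. Alternatives are given in the closing section. The members and gene lists were chosen with earlier results of these data known.

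Named genes are members called (up to 10 rises and 10 falls per comparison), the most abundant member per family, the smallest p per knockout comparison, called events, up to 3 events with the smallest p per knockout comparison, and up to 4 genes of the 2 other lists. The event with the largest difference in its family is shown for Eph receptors, Robo receptors, Slits, plexins and semaphorins. It is not shown for ephrins, netrins, netrin receptors and neuropilins. Others (Robo3, Robo4, Slit3, Unc5a, Ntn4, Epha8, Sema6d, Slit2 exons of 12 and 24 nt, and the Unc5b exon) were chosen after their values were seen. Exons were matched to GENCODE M21 for 51 of 64.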

Additional observations from a re-analysis of the deposited data

How the results depend on the processing

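No paired analysis was possible because library numbers are not shared between groups. None of the single genes and events followed changed direction under the alternatives run. Each was counted again for every comparison, alternative and left-out library. So counted, 1038 outcomes kept their side of the threshold, 200 lost it and 3 gained it. The gains were those of the 126 nt exon of Robo2 and the 27 nt exon of Slit2 at P10 against P1. Member calls in knockout against wild type, and in the change of that difference with age, were 0 under every alternative, for expression and splicing. By junction reads, counts of members called were 51 (knockout P10 against P1), 42 (wild-type P10 against P1), 55 (P30 against P1) and 42 (P30 against P10). With the compared groups alone in the fit, 7 were called for knockout P10 against P1 while P30 against P10 had 27, and with a pseudocount of 0.1 they were 6 for wild-type P10 against P1. Leaving out 1 library gave 13 to 22, 2 to 7, 24 to 31 and 9 to 13 in the same order. For splicing, knockout P10 against P1 gave 0 with the compared groups alone, 2 with limma's default prior over mean log odds and 1 to 3 with 1 library left out. Wild-type P10 against P1 gave 1 with at least 20 reads and 0 to 1 with 1 library left out. P30 against P10 gave 2 with a mean PSI of 1 to 99, 2 with that default prior and 1 to 5 with 1 library left out, and P30 against P1 gave 5 to 11. The cause of these shifts was not tested. Counts over all genes or events in the same fits are not given here, so shifts among members cannot be set beside them. Uncalled members outside that set can differ in sign between measures: Ephb3 in knockout P10 against P1 was 1.05 by cRPKM and −0.39 by junction reads, and Epha2 in knockout against wild type at P10 was 0.41 and −0.57, with no overlap of the groups by either measure. A wild-type group of 1 library was assumed to vary like the others. Events with few reads, as in Slit2 and Epha6, limit what could be detected.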
